A study of Mus musculus with 6 samples.

Results

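The genes described here are 34 interferon response and immunoproteasome genes, measured in the epididymal white fat of mice. They were chosen as a list of gene symbols. All 34 had reads, which makes 34 of the 23492 genes and 114 of the 61729 transcripts seen in the series. Each library was made with a nanopore direct cDNA kit, which uses no PCR, from 100 ng of poly-A RNA of the whole tissue. The 3 cold mice (cold 7, cold 12 and cold 16) spent their last 24 h singly at 4 °C, and the 3 mice of the ctrl group (ctrl 5, ctrl 6 and ctrl 10) are the controls. All 6 were wild type C57BL/6N males of 20 weeks, kept before at 22 to 24 °C, and whether the ctrl mice also lived singly is not stated. Each library is 1 mouse, so the replicates are separate animals. The comparison asks whether a day in the cold changes this gene module in the fat pad.

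Interferons are secreted proteins that warn cells of infection. Type I interferons act through the receptor chains Ifnar1 and Ifnar2, the kinases Jak1 and Tyk2, and a complex that holds Stat2 and Irf9 and binds interferon-stimulated response elements (ISRE) in promoters. Interferon gamma, made mainly by T and NK cells, acts through Ifngr1 and Ifngr2 and on gamma-activated sites (GAS) in promoters, and it also induces the factor Irf1. The induced genes block viral entry and replication, sense foreign nucleic acid, and cut and transport peptides for display on MHC class I.

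None of the tested members passed the threshold in the cold. By edgeR's quasi-likelihood test, 30 of the 34 members had enough reads to be tested and 0 had an adjusted p under 0.05, where 0.655% of all 9772 genes tested did. DESeq2 and limma-voom also called 0 of the 30. By DESeq2 1 member had an unadjusted p under 0.05 and by limma-voom 5 had, and the shares of all genes by these 2 tools are not given here. At an unadjusted p under 0.05 there were 4 members by edgeR (13.3%, against 8.43% of all genes). Of the 4, Ifi27l2a, Bst2 and Psmb9 had lower values in the cold, against 3.71% of all genes, and Lgals3bp had higher ones, against 4.72%. The median log2 fold change (cold over ctrl, on TMM-normalized counts) was -0.02 over the 30 members and 0.01 over all genes tested. Of the 30 members 18 were below 0, which is 60% against 49.2% of all genes. In 27 of the 30 members the 95% interval of the fold change lay within 2-fold in both directions. The intervals of Trim25, Ifih1 and Oasl2 reached below it. In bulk tissue, fewer cells of a type and less RNA per cell cannot be told apart.

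**Figure D1:**
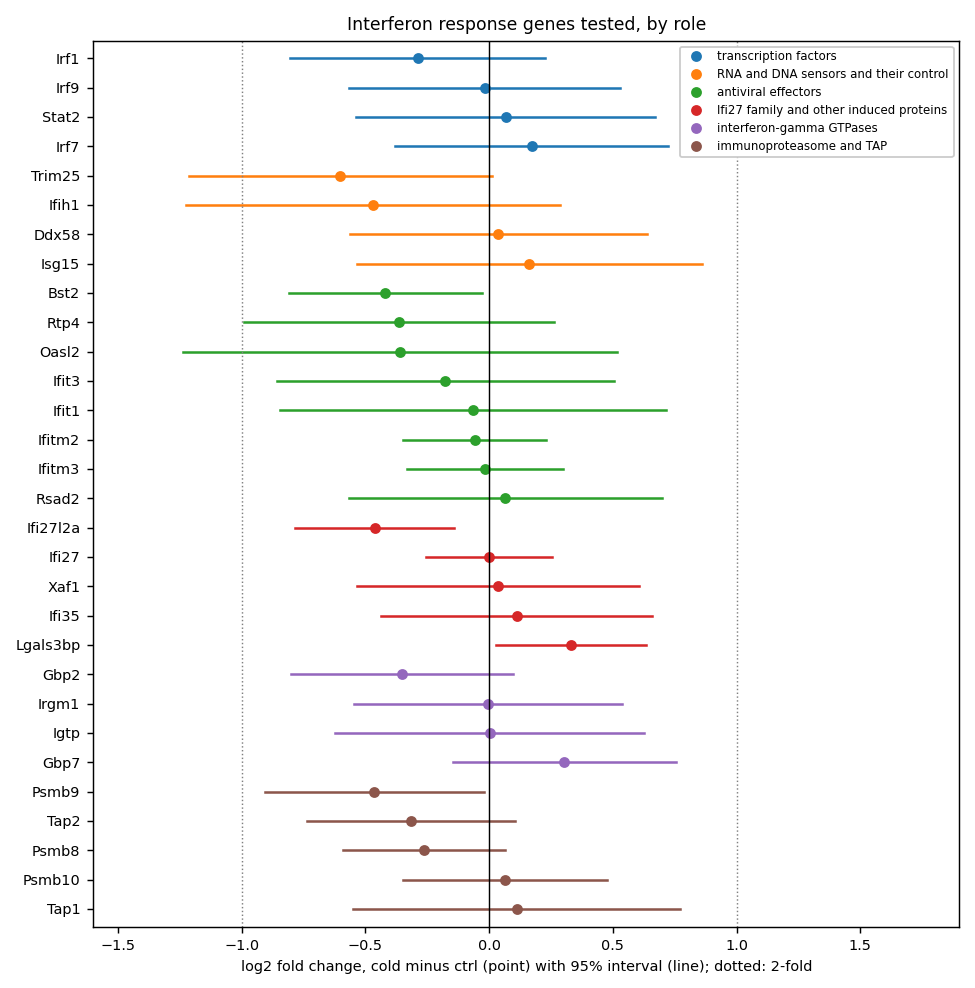
Log2 fold change, cold minus ctrl, of the 30 members tested (point) with its 95% interval (line), coloured by role; dotted lines mark 2-fold. The intervals of Ifi27l2a, Bst2 and Psmb9 lie below 0 and that of Lgals3bp above it, and the other 26 include 0.

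Of the members, 28 had a RefSeq promoter window of 250 bases before to 50 bases after a gene start (GRCm38.p6), and Ifi27, Ifi27l2a, Tap2, Rtp4, Usp18 and Zbp1 had none. The core of an ISRE, GAAA and GAAA separated by any 2 bases, was searched on both strands. It stood in the windows of 15 of the 28 members (53.6%), against 3.99% of the 27025 genes with a window. The GAS letters TTCNNNGAA, also read on both strands, stood in 9 of 28 members (32.1%), against 9.55% of genes. A match is a description of these letters and not a mapped site. The stretches of the 5 members with the highest mean CPM that hold an ISRE match are shown to let their spacing and strand be read. Each is given 5′ to 3′ on the strand of its gene, with the ISRE letters in capitals.

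Ifitm3: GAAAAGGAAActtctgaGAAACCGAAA
Ifitm2: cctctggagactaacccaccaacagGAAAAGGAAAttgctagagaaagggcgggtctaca
Bst2: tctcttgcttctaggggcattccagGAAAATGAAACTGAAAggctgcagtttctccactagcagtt
Gbp7: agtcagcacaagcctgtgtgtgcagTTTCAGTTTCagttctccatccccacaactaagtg
Gbp2: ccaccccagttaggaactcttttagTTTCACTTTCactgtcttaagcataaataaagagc

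The Ifitm3 stretch (chr7:141010716-141010742, minus strand) begins at base 3 past the start and holds 2 matches. The Ifitm2 stretch (chr7:140955973-140956032, minus strand) has its match from base -46, counted from the start. The Bst2 stretch (chr8:71537562-71537627, minus strand) holds 2 overlapping matches from bases -130 and -124, and its GAS match, TTCCAGGAA from base -136, overlaps the first. The Gbp7 (chr3:142530258-142530317) and Gbp2 (chr3:142620579-142620638) stretches carry the motif on the other strand, from bases -53 and -59. Isg15 had 3 overlapping matches, from bases -78, -72 and -66. Over the 14 tested members with an ISRE match the median log2 fold change was -0.01, and over the 12 with a window and no match it was 0.01.

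The member with the most reads was Ifi27l2a (ENSMUSG00000079017.3, chromosome 12, 103442167 to 103443680, GRCm38), a small interferon-induced membrane protein of the Ifi27 family. In read count it ranked 20th of all genes (rank 20 of 23492), and it alone took 53.5% to 61.8% of the members' reads in cold mice and 62.2% to 65.4% in ctrl mice. Ifi27l2a had 2625 CPM (reads scaled to a common total of reads assigned to genes) in cold 7, 3646 in cold 12 and 2311 in cold 16, against 4175 in ctrl 5, 3485 in ctrl 6 and 4387 in ctrl 10. Cold 7 and cold 16 lay below every ctrl mouse, and cold 12 lay above ctrl 6, so the groups overlapped. The means were 2861 ± 698 CPM in the cold and 4016 ± 472 CPM in ctrl mice (SD, n = 3). The log2 fold change was -0.46 ± 0.15 (SE), with a 95% interval of -0.78 to -0.14 (edgeR adjusted p = 0.315). It lay between -0.68 and -0.32 with any 1 mouse left out. With no filter on low counts the adjusted p was 0.0273 (edgeR), the only call of a member under any alternative. The log2 fold change was then -0.48, and that setting called 371 genes over the whole table where the main fit called 64.

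Ifi27 (ENSMUSG00000064215.13), the namesake of the family, lies next to Ifi27l2a on chromosome 12 at 103434211 to 103440239. Its levels were 609, 643 and 581 CPM in cold 7, cold 12 and cold 16, against 599, 629 and 640 CPM in ctrl 5, ctrl 6 and ctrl 10. The 6 mice overlapped fully, and the 95% interval of the log2 fold change was -0.26 to 0.26 (edgeR adjusted p = 1). Mean CPM over all 6 mice, not scaled by transcript length, was 3438 for Ifi27l2a, 617 for Ifi27, 365 for Ifitm3 and 303 for Ifitm2. The other 30 members lay between 3.72 (Usp18) and 176 (Lgals3bp) CPM.

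**Figure D2:**
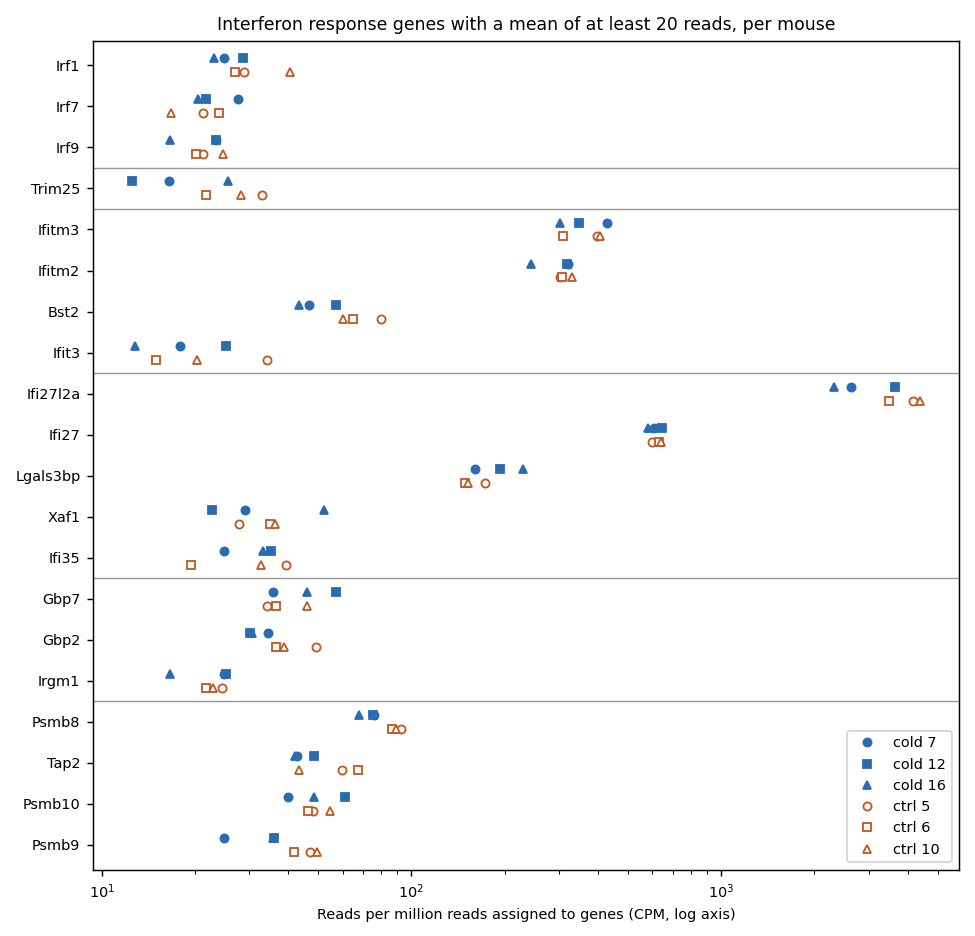
CPM on a log axis of the 20 members with a mean of at least 20 reads, per mouse; filled blue symbols are cold mice, open orange symbols ctrl mice, and lines separate the roles. The cold symbols all lie left of the ctrl symbols in Bst2, Gbp2, Psmb8 and Psmb9 alone.

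Ifitm2 and Ifitm3 are membrane proteins that hold back the fusion of viruses with endosomes. Ifitm3 had 429, 347 and 301 CPM in cold 7, cold 12 and cold 16, against 398, 309 and 405 CPM in ctrl 5, ctrl 6 and ctrl 10. Ifitm2 had 321, 317 and 244 CPM in the cold mice in the same order, against 302, 305 and 330 CPM in the ctrl mice. In both genes cold 16 was the lowest of the 6 mice. Cold 7 was the highest in Ifitm3, and the groups overlapped in both genes. The log2 fold changes were -0.02 (95% interval -0.33 to 0.30) for Ifitm3 and -0.06 (-0.35 to 0.23) for Ifitm2 (edgeR adjusted p = 0.989 and 0.96). The paired genes are close in sequence, and how reads matching both were counted is not given in the sources used here.

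Bst2 (ENSMUSG00000046718.8, chromosome 8, 71534255 to 71537456), or tetherin, ties budding virus to the cell surface. It had 46.9, 57.0 and 43.4 CPM in cold 7, cold 12 and cold 16, against 79.99, 65 and 60.01 CPM in ctrl 5, ctrl 6 and ctrl 10. Every cold mouse lay below every ctrl mouse. The log2 fold change of Bst2 was -0.42 ± 0.19 (SE), with a 95% interval of -0.81 to -0.03 (edgeR adjusted p = 0.55). Among the 30 members, 4 had all cold mice below all ctrl mice (Bst2, Psmb9, Psmb8 and Gbp2), which is 13.3% against 7.7% of all genes tested. None had all cold mice above, against 5.96% of all genes.

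The classical effectors of type I interferon had few reads. Ifit3, a member of the family that binds viral RNA, had 17.9, 25.2 and 12.8 CPM in cold 7, cold 12 and cold 16, against 34.1, 14.9 and 20.3 CPM in ctrl 5, ctrl 6 and ctrl 10. Ifit1, Ifit2 and Ifit3 together had 25, 62 and 16 reads in the cold mice, against 59, 47 and 50 reads in the ctrl mice. As CPM these were 34.5, 52.0 and 20.4 CPM in the cold and 62.9, 35.1 and 44.1 CPM in ctrl mice. Cold 12 lay within the ctrl range, and cold 7 and cold 16 just below or below it. Oasl2, related to the enzymes that make 2-5A, had 27 reads in the cold and 44 in ctrl mice, or 9.93 and 13.7 mean CPM. Rsad2 (viperin), which makes a chain-terminating nucleotide, had 48 and 58 reads in the cold and ctrl groups, or 17.3 and 17.6 mean CPM. Rtp4, a chaperone of membrane receptors, had 43 and 70 reads, or 15.2 and 20.9 mean CPM. Rtp4 overlaps Masp1 on the opposite strand and Gm45338 on the same strand, so its reads are uncertain. The log2 fold changes of these 5 tested genes lay between -0.36 and 0.06, and their edgeR adjusted p between 0.838 and 0.984.

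Ifit2 and the 2-5A synthetase gene Oas1a had too few reads to be tested. Ifit2 had 5, 6 and 0 reads in cold 7, cold 12 and cold 16, against 8, 9 and 13 reads in ctrl 5, ctrl 6 and ctrl 10. Oas1a had 4, 3 and 0 reads in the cold mice, against 6, 6 and 6 reads in the ctrl mice. A count of 0 in cold 16 allows up to 3.83 CPM, so neither gene is shown to be absent there.

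Among the sensors, Trim25, the ubiquitin ligase that activates RIG-I, had the lowest log2 fold change of the 30 tested members when all 6 mice were used. It had 16.5, 12.6 and 25.5 CPM in cold 7, cold 12 and cold 16, against 33.1, 21.7 and 28.2 CPM in ctrl 5, ctrl 6 and ctrl 10. Cold 7 and cold 12 lay below the ctrl mice and cold 16 among them. The log2 fold change of Trim25 was -0.60 ± 0.29 (SE, 95% interval -1.21 to 0.01, edgeR adjusted p = 0.608). Without cold 12 it was -0.33, and Ifit1, Rtp4 and Ifi27l2a were then among the members with lower values, and without cold 16 it was -0.91. The gene Ddx58, which encodes the RNA sensor RIG-I, had 51 reads in the cold and 64 in ctrl mice, or 19.3 and 19.0 mean CPM. The related sensor gene Ifih1 (MDA5) had 29 and 52 reads in the cold and ctrl groups, or 11.3 and 15.4 mean CPM. Isg15, a ubiquitin-like modifier, had 46 and 52 reads, with 16.5, 20.97 and 11.5 CPM in cold mice and 13.9, 11.2 and 21.2 CPM in ctrl mice. These 3 genes had adjusted p of 0.823 to 0.988 (edgeR). Zbp1, a sensor of left-handed nucleic acid, had 15 reads in the cold and 21 in ctrl mice, or 6.07 and 5.97 mean CPM. Usp18, which removes Isg15 from proteins, had 14 and 10 reads, or 4.75 and 2.69 mean CPM, and neither of these was tested. Usp18 overlaps Gm44148 on the opposite strand, so its reads are uncertain.

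Of the transcription factors 0 of 4 passed, by edgeR, DESeq2 or limma-voom. Irf1 had 24.8, 28.5 and 23.0 CPM in cold 7, cold 12 and cold 16, against 28.8, 26.9 and 40.6 CPM in ctrl 5, ctrl 6 and ctrl 10 (log2 fold change -0.29 ± 0.25, SE, edgeR adjusted p = 0.843). Irf7, the factor that amplifies type I interferon, had 27.6, 21.8 and 20.4 CPM in the cold mice and 21.3, 23.9 and 16.8 CPM in the ctrl mice (0.17 ± 0.26). Irf9 had 23.4, 23.5 and 16.6 CPM in the cold mice and 21.3, 20.2 and 24.7 CPM in the ctrl mice (-0.02 ± 0.26). Stat2, its partner, had 46 reads in the cold and 56 in ctrl mice, or 16.6 and 16.4 mean CPM. All 4 overlapped between the groups. Irf7 overlaps Phrf1 on the opposite strand and Irf9 overlaps Rnf31 on the same strand, so their reads are uncertain.

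The immunoproteasome is a form of the proteasome in which Psmb8, Psmb9 and Psmb10 take the places of the catalytic subunits Psmb5, Psmb6 and Psmb7, and Tap1 with Tap2 carries the cut peptides into the endoplasmic reticulum. Psmb8, Psmb9, Tap1 and Tap2 lie side by side on chromosome 17 in the MHC region. Psmb9 (ENSMUSG00000096727.3, 34181987 to 34187764) had 24.8, 36.1 and 35.8 CPM in cold 7, cold 12 and cold 16, against 46.9, 41.8 and 49.4 CPM in ctrl 5, ctrl 6 and ctrl 10. All cold mice lay below all ctrl mice. Its log2 fold change was -0.46 ± 0.21 (SE, 95% interval -0.90 to -0.02, edgeR adjusted p = 0.557). From the 2 count files of each mouse taken singly it was -0.63 (X1) and -0.30 (X2).

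Psmb8 (ENSMUSG00000024338.15, 34197721 to 34201454) had 75.8, 75.5 and 67.7 CPM in cold 7, cold 12 and cold 16, against 92.8, 86.6 and 89.1 CPM in ctrl 5, ctrl 6 and ctrl 10. The groups again did not overlap, with a narrow spread in each. The log2 fold change of Psmb8 was -0.26 ± 0.16 (SE, 95% interval -0.59 to 0.06, edgeR adjusted p = 0.722). Psmb10, which lies on chromosome 8, had 40.0, 61.2 and 48.5 CPM in the cold mice, against 48.0, 46.3 and 54.7 CPM in the ctrl mice. Its groups overlapped, with a log2 fold change of 0.06 (95% interval -0.35 to 0.48, edgeR adjusted p = 0.967).

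Tap2 had 42.7, 48.6 and 42.2 CPM in cold 7, cold 12 and cold 16, against 59.7, 67.2 and 43.2 CPM in ctrl 5, ctrl 6 and ctrl 10 (log2 fold change -0.32 ± 0.20, SE, edgeR adjusted p = 0.756). Only cold 12 lay above a ctrl mouse, ctrl 10. Tap1 had 13.8, 12.6 and 20.4 CPM in the cold mice, against 12.8, 14.2 and 15.9 CPM in the ctrl mice. Its log2 fold change was 0.11, with a 95% interval of -0.55 to 0.77 (edgeR adjusted p = 0.965). Psmb9 and Tap1 are read away from each other, and their annotated 5′ ends overlap on opposite strands, which makes the reads of both uncertain. The 225 bases between their RefSeq starts are shown because both genes share them, a choice made after their values were seen. In GENCODE M21, used here to assign reads to genes, Psmb9 reaches base 34187764, so these bases lie within that annotated gene. The stretch (chr17:34187331-34187555, plus strand, GRCm38.p6, 5′ to 3′ towards Tap1) has the GC box letters GGGCGG, read on the other strand, in capitals.

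Psmb9 to Tap1: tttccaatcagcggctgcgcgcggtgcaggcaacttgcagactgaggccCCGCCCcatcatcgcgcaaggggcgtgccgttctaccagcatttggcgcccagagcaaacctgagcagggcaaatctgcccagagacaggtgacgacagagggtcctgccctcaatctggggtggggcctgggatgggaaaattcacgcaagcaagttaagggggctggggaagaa

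The GC box letters stood in 38.2% of all genes with a window, on either strand. The ISRE and GAS letters searched here had 0 matches in the 225 bases, which says only that these letters are not in this stretch. The difference between the fold changes of Psmb9 and Tap1 was not tested.

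The immunoproteasome subunits were also set against the subunits they replace, which cancels the read depth of a library. The shares are of reads and are not scaled by transcript length. Psmb8 made up 25.2%, 27.6% and 26.6% of the reads of Psmb8 and Psmb5 in cold 7, cold 12 and cold 16, against 32.1%, 27.4% and 32.8% in ctrl 5, ctrl 6 and ctrl 10. Cold 12 lay just above ctrl 6, and the other cold mice lay below all ctrl mice. The means were 26.5 ± 1.20% in the cold and 30.8 ± 2.96% in ctrl mice (SD, n = 3). For Psmb9 of Psmb9 and Psmb6 the shares were 12.0%, 16.0% and 18.1% in the cold mice, against 18.5%, 16.1% and 20.1% in the ctrl mice. For Psmb10 of Psmb10 and Psmb7 they were 21.5%, 32.9% and 27.1% in the cold mice, against 26.6%, 22.1% and 31.3% in the ctrl mice. Each share overlapped between the groups. The 95% Wilson intervals cover counting error only, and for the lowest share, that of Psmb9 in cold 7, the interval was 7.73% to 18.2%.

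**Figure D3:**
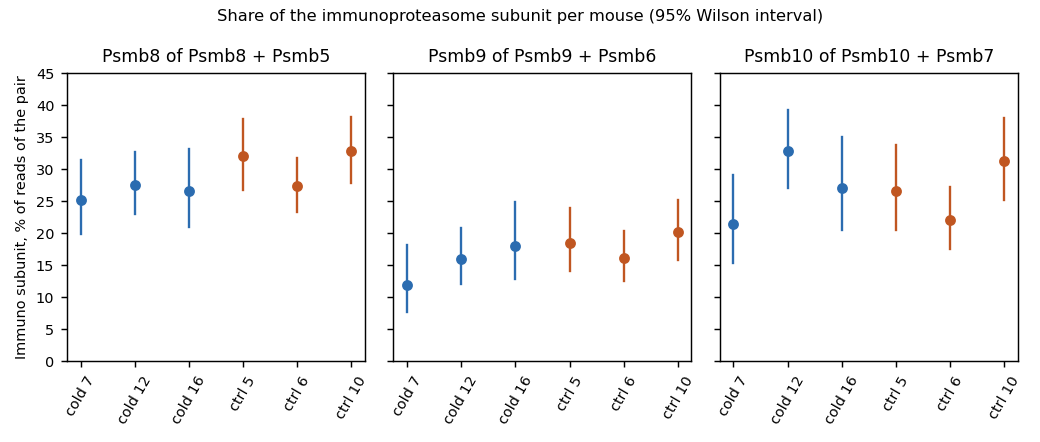
Reads of the immunoproteasome subunit as a percentage of the reads of it and the subunit it replaces, in the 3 cold mice (blue) and the 3 ctrl mice (orange), with 95% Wilson intervals. The Psmb8 share was 25.2% to 27.6% in cold mice and 27.4% to 32.8% in ctrl mice.

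The GTPases that interferon gamma induces coat the vacuoles of microbes. Gbp2 had 34.5, 30.2 and 30.7 CPM in cold 7, cold 12 and cold 16, against 49.1, 36.6 and 38.8 CPM in ctrl 5, ctrl 6 and ctrl 10. All cold mice lay below all ctrl mice (log2 fold change -0.35 ± 0.21, SE, edgeR adjusted p = 0.733). That value of Gbp2 differed between the 2 count files of each mouse, with -0.01 from the X1 files alone and -0.82 from the X2 files alone. Its relative Gbp7 had 35.8, 57.0 and 46.0 CPM in the cold mice, against 34.1, 36.6 and 45.9 CPM in the ctrl mice. Here cold 12 and cold 16 lay above all ctrl mice (0.30 ± 0.21, edgeR adjusted p = 0.792). Irgm1 had 24.8, 25.2 and 16.6 CPM in the cold mice and 24.5, 21.7 and 22.9 CPM in the ctrl mice, and Igtp had 45 reads in the cold and 57 in ctrl mice. The log2 fold changes of both were 0.00 to 2 decimals, with 95% intervals of -0.55 to 0.54 (Irgm1) and -0.62 to 0.62 (Igtp). Igtp overlaps Irgm2 on the same strand.

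Lgals3bp (ENSMUSG00000033880.11, chromosome 11, 118392751 to 118402092), a secreted glycoprotein that binds galectin-3, had the highest log2 fold change of the 30 tested members. It had 160, 194 and 230 CPM in cold 7, cold 12 and cold 16, against 173, 149 and 153 CPM in ctrl 5, ctrl 6 and ctrl 10. Cold 7 lay among the ctrl mice and the other cold mice above them. The log2 fold change of Lgals3bp was 0.33 ± 0.15 (SE, 95% interval 0.03 to 0.63, edgeR adjusted p = 0.543). It was 0.21 without cold 16 and 0.43 without cold 7. From the 2 count files of each mouse taken singly it was 0.43 (X1) and 0.20 (X2). Xaf1, a proapoptotic protein, had 29.0, 22.6 and 52.4 CPM in the cold mice, against 27.7, 35.1 and 36.2 CPM in the ctrl mice, so the cold mice held both the lowest and the highest value. Ifi35 had 24.8, 35.2 and 33.2 CPM in the cold mice and 39.5, 19.4 and 32.7 CPM in the ctrl mice. Neither passed (edgeR adjusted p = 0.988 and 0.961).

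The mice of a group did not move alike over the members. Cold 16 was the lowest of the 6 mice in 15 of the 30 tested members, while cold 12 was the lowest in 5, cold 7 in 3, ctrl 5 in 2, ctrl 6 in 4 and ctrl 10 in 1. Ctrl 5 was the highest in 9 members, cold 12 in 7 and ctrl 10 in 6. The median log2 ratio of the 30 members to the mean of the ctrl mice, with 1 CPM added, was -0.36 in cold 16, -0.20 in cold 7 and -0.02 in cold 12. In ctrl 5, ctrl 6 and ctrl 10 it was 0.05, -0.11 and 0.06. These counts and ratios were not made over all genes, so whether they are particular to the members was not tested. Without Ifi27l2a the members summed to 2183, 2252 and 2011 CPM in cold 7, cold 12 and cold 16, against 2316, 2121 and 2325 CPM in the ctrl mice. That sum overlapped between the groups.

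At the transcript level, 61 of the 114 member transcripts had at least 20 reads over the 6 mice and 34 could be tested. By edgeR 0 of the 34 passed, against 0.381% of all 12325 transcripts tested, and 3 had an unadjusted p under 0.05, against 6.87% of all. DESeq2 and limma-voom called 0 of them too, with 2 and 4 at an unadjusted p under 0.05, and their shares over all transcripts are not given here. The 3 by edgeR were the only transcripts with reads of Ifi27l2a and of Bst2, and Lgals3bp-205. Transcript usage, the split of a gene's reads over its transcripts, could be tested in 7 members, and the smallest p was 0.359 unadjusted (edgeR diffSpliceDGE, Simes, 0 of 7 called). Over all 2624 genes tested for usage 0 passed and 0.953% had an unadjusted p under 0.05. In 10 members a single transcript had all reads.

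Ifi27 reads fell mostly on 2 protein-coding transcripts, Ifi27-205 (7 exons) and Ifi27-201 (6 exons). Ifi27-205 took 48.2%, 44.5% and 37.1% of the reads of the gene in cold 7, cold 12 and cold 16, against 49.8%, 50.7% and 45.5% in ctrl 5, ctrl 6 and ctrl 10. Ifi27-209, a retained intron transcript, took 11.3%, 14.3% and 27.3% in the cold mice, against 14.8%, 11.6% and 15.0% in the ctrl mice. Cold 16 stood apart, and its 95% Wilson interval (23.4% to 31.5%) lay above those of the other 5 mice. The same mouse had the highest share of retained intron reads over all genes, 4.38% against 3.25% to 3.63% in the others, and over the members 5.65% against 2.65% to 2.79%. The member share includes Ifi27-209, which held 124 of the members' 191 retained intron reads in cold 16. In cold 7, cold 12, ctrl 5, ctrl 6 and ctrl 10 it held 50 of 97, 110 of 193, 83 of 170, 98 of 199 and 109 of 207. Lgals3bp-205, a 2-exon form, took 26.7%, 23.8% and 38.3% of Lgals3bp reads in the cold mice, against 24.1%, 20.1% and 27.2% in the ctrl mice, again with cold 16 highest. The part of this library-wide shift in the transcript values was not tested.

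**Figure D4:**
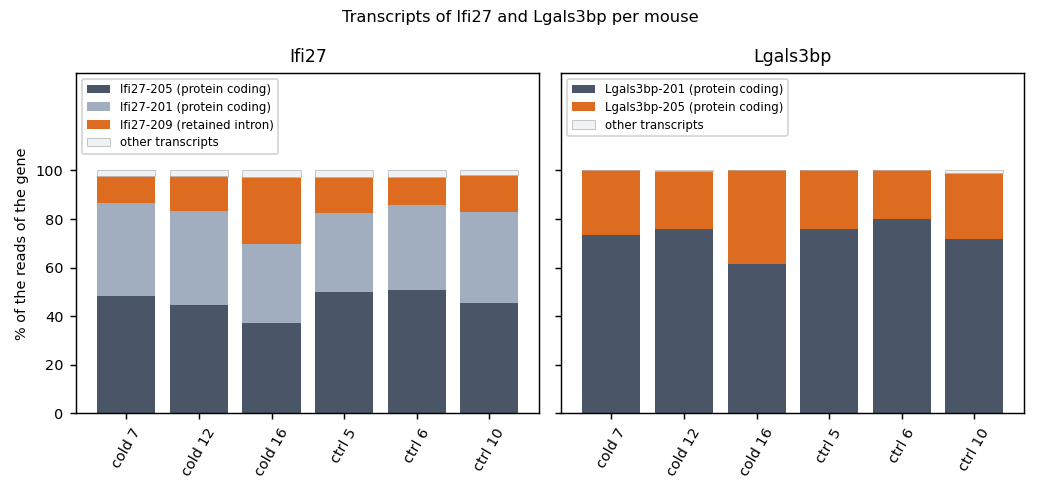
Share of the reads of Ifi27 (left) and Lgals3bp (right) on each main transcript, in percent, in the 3 cold mice and then the 3 ctrl mice. Ifi27-209 took 27.3% of Ifi27 reads in cold 16 and 11.3% to 15.0% in the other 5 mice.

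Reads of the immunoproteasome genes were assigned to more than 1 transcript in every mouse. How reads that match several transcripts were assigned is not given in the sources used here. The full coding form Psmb8-201 took 61.8%, 77.8% and 67.9% of Psmb8 reads in cold 7, cold 12 and cold 16, against 64.4%, 75% and 66.3% in ctrl 5, ctrl 6 and ctrl 10. The retained intron form Psmb8-205 took 14.4% to 23.6% in cold mice and 14.7% to 25.3% in ctrl mice. Psmb10-201 took 50% to 55.2% of Psmb10 reads in cold mice and 48.4% to 57.8% in ctrl mice. Ddx58-205, a processed transcript, took 63.2% to 75% of Ddx58 reads in cold mice and 54.2% to 66.7% in ctrl mice. All of these shares overlapped between the groups.

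Other genes of the pathway, 147 in 7 lists chosen by role, gave 98 tested genes. By edgeR, DESeq2 and limma-voom 0 of them passed, and 3, 1 and 3 had an unadjusted p under 0.05, all lower in the cold. By edgeR 8.43% of all genes tested had such a p, 3.71% with lower values and 4.72% with higher ones. The shares of all genes by the other 2 tools are not given here. Of the 98 genes, 13 had all cold mice below all ctrl mice (13.3%, against 7.7% of all genes) and 2 had all above (2.04%, against 5.96%). No reads were seen for the type I interferon genes in the list (Ifna1, Ifna2, Ifna4, Ifna5, Ifnb1, Ifne and Ifnk), and Ifng had 1 read over all 6 mice. The interferon-induced chemokine Cxcl9 had 32.9 ± 4.31 CPM in the cold and 44.8 ± 5.68 CPM in ctrl mice (SD, n = 3, edgeR adjusted p = 0.661). Of 16 receptor and signalling genes 11 were lower and 5 higher, where 49.2% of all genes tested were lower. Ifngr1, the binding chain of the interferon gamma receptor, had 253 ± 15.3 CPM in the cold and 318 ± 25.7 CPM in ctrl mice (edgeR adjusted p = 0.534).

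The peptide loading list held the smallest p. Tapbp (tapasin), which links MHC class I to the TAP transporter, had 160, 145 and 169 CPM in cold 7, cold 12 and cold 16, against 243, 204 and 213 CPM in ctrl 5, ctrl 6 and ctrl 10. All cold mice lay below all ctrl mice, with a log2 fold change of -0.45 ± 0.14 (SE, unadjusted p = 0.00335, edgeR adjusted p = 0.22). Erap1, which trims peptides, had 175 ± 2.04 CPM in the cold and 215 ± 15.3 CPM in ctrl mice (SD, n = 3, edgeR adjusted p = 0.612). Of the 11 genes of this list 6 were lower and 5 higher, with a median of -0.02. In this list 1 gene had all cold mice above all ctrl mice (5.96% of all genes) and 2 had all below (7.7%). The 27 constitutive proteasome genes had a median of -0.03. Of them 1 had all cold mice above all ctrl mice (5.96% of all genes) and 2 had all below (7.7%). Psmb6, the subunit that Psmb9 replaces, had 178 ± 14.1 CPM in the cold and 207 ± 11.04 CPM in ctrl mice (edgeR adjusted p = 0.788). Of 27 other interferon-stimulated genes 20 were lower and 7 higher, with a median of -0.12, where 49.2% of all genes tested were lower. Among them, the nuclear DNA-binding gene Ifi203 had 18.004 ± 7.25 CPM in the cold and 29.1 ± 2.83 CPM in ctrl mice (edgeR adjusted p = 0.551). The 8 other GTPase genes had a median of 0.01 and the 6 sensing genes one of -0.06.

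**Figure D5:**
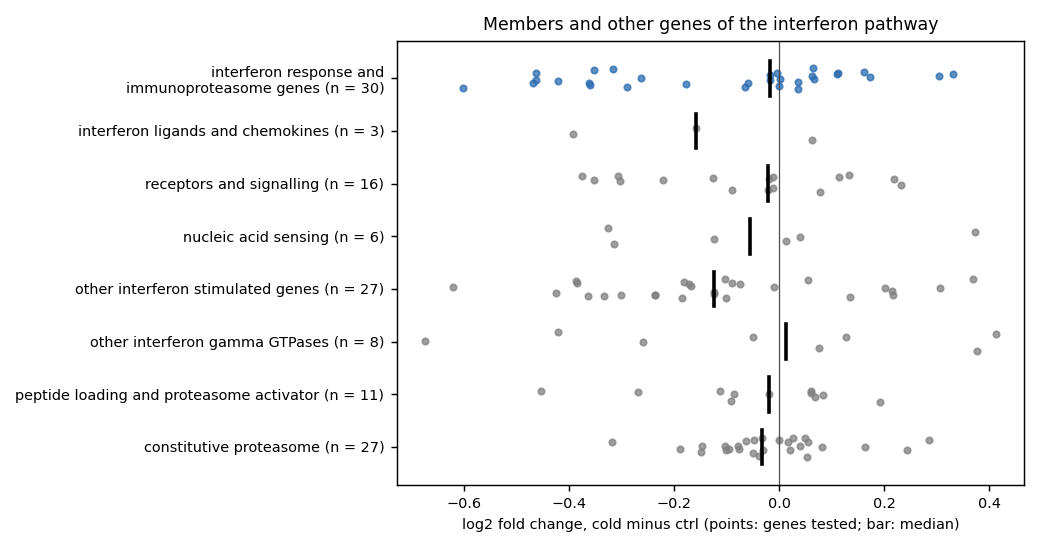
Log2 fold change, cold minus ctrl, of the tested members (blue, top row) and of 7 lists of other pathway genes (grey), with a bar at each median. The medians lay between -0.16 (3 ligand and chemokine genes) and 0.01 (8 other GTPase genes), and that of the members was -0.02.

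Total reads were 726283 to 1194134 in cold mice and 939107 to 1341592 in ctrl mice. Adipocyte markers (7 genes, among them Adipoq, Plin1 and Fabp4) summed to 40848 to 43465 CPM in cold mice and 40204 to 43059 CPM in ctrl mice. Of these 7 genes Pnpla2, a triglyceride lipase, rose (log2 fold change 0.65, edgeR adjusted p = 0.00971), against 0.542% of all genes. Of the 7, 3 had all cold mice above all ctrl mice (5.96% of all genes) and 2 had all below (7.7%). The 10 macrophage markers summed to 636 to 1177 CPM in the cold and 852 to 1038 CPM in ctrl mice, with cold 16 lowest. The 9 T cell markers summed to 26 reads in the cold and 65 in ctrl mice, or 8.27 to 10.9 CPM against 13.9 to 23.1 CPM, and Cd8a and Cd8b1 had at most 3 reads each. The 7 NK cell markers had 9.65 to 13.4 CPM in the cold and 14.1 to 23.9 CPM in ctrl mice. None of the T or NK cell markers had enough reads to be tested. Monocyte markers summed to 34.5 to 80.0 CPM in the cold and 30.6 to 51.2 CPM in ctrl mice. Dendritic cell markers had 28.1 to 40.0 CPM in the cold and 39.5 to 45.5 CPM in ctrl mice. Plasmacytoid dendritic markers had 1.38 to 7.66 and 2.99 to 6.18 CPM in the cold and ctrl mice. B cell markers had 6.39 to 9.65 and 5.30 to 17.1 CPM in the same order. Neutrophil markers had 10.1 to 20.7 and 6.18 to 23.1 CPM. Adipocyte precursor markers had 787 to 1173 CPM in the cold and 854 to 1018 CPM in ctrl mice. Mesothelial markers had 62.1 to 132 and 58.2 to 175 CPM in the same order. The 6 endothelial markers had 491 to 572 CPM in the cold and 562 to 629 CPM in ctrl mice. By edgeR 0 of the 6 passed the threshold, and 1 (Cldn5, lower) had an unadjusted p under 0.05, against 8.43% of all genes. Of the 7 epithelial markers 4 could be tested and all 4 rose by edgeR (Epcam, Cldn7, Krt8 and Krt18), against 0.542% of all genes. The list summed to 129 to 379 CPM in the cold and 5.97 to 22.4 CPM in ctrl mice. Of its reads in cold 7, 222 of 275 were of Crisp1, a secreted protein of the epididymis. The part of these cell types in the members' values was not tested.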

How the data were processed

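The authors deposited raw read counts per transcript, 2 files (X1 and X2) for each mouse, with no normalization. Per the submitters' processing notes, minimap2 and GRCm38 were used; no source used here names the counting tool, its use of strand or what separates the files. The 2 files of a mouse differed by about the sampling noise (chi-square per degree of freedom 1.02 to 1.06) and were added up. Transcripts were assigned to genes by GENCODE M21, where 191 of 61729 identifiers had no match (0.139% to 0.165% of reads).

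Genes and transcripts were fitted over the whole tables with edgeR 4.0.16 in R 4.3.3 (quasi-likelihood, TMM, filterByExpr with a minimum count of 10, Benjamini-Hochberg, threshold 0.05). Intervals of fold changes come from the same fit. DESeq2 1.42.0 and limma-voom (limma 3.58.1) were alternatives, beside other scalings, filters, single files and each mouse left out. CPM is not TMM-scaled. Single reads weigh 0.747 to 1.38 CPM.

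The scripts were tested on simulated counts. The members and lists were chosen with earlier results of these data known. Values in every mouse are given for members with a mean of at least 20 reads, and, chosen after their values were seen, for Isg15, Tap1, Ifit2 and Oas1a, and pathway genes are named from the 4 with the smallest p in each list. Of the 61 member transcripts with at least 20 reads, those named were picked after their values were seen. Cell type markers are named where a statement needs them. Cell type lists are given by their sums. The values of 1 pathway gene are not reported here.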

Additional observations from a re-analysis of the deposited data

How the results depend on the processing

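Called genes numbered 64 as reported, and, among the 14 alternatives, 371 with no filter, 38 with X2 files and 35 to 199 with 1 mouse left out (35 without cold 12, 106 without ctrl 5, 199 without cold 7). Called transcripts numbered 47, and 260 with no filter, 30 with X1 files, 26 with X2 files and 26 to 162 with 1 mouse left out (26 without cold 12, 71 without ctrl 5 or cold 16, 162 without cold 7). Genes called for usage numbered 0, and 1 with no filter and 0 to 1 with 1 mouse left out (1 without cold 7). Members past the threshold numbered 0, and 1 with no filter (Ifi27l2a); the cause was not tested. They numbered 0 under the other 13 alternatives. The members' median was -0.15 to 0.04 with 1 mouse left out (0.04 without cold 16, -0.15 without ctrl 6) and within the spread between mice (pooled SD 0.15) under all 14. Of 403 member values under alternatives, 52 had another sign than the value reported, in 19 of 30 members, all of them uncalled. No paired analysis was possible because the mouse numbers differ between the groups. Depth left Ifit2, Oas1a, Usp18 and Zbp1 untested.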
